A study of Mus musculus with 7 samples.

Results

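The genes described here are 40 genes of the cell cycle: the cyclins and cyclin-dependent kinases (CDKs) that drive it, the inhibitors that stop it, the machinery that copies DNA, and the proteins that carry out mitosis. The list of names was drawn up with earlier results of these data known. Each gene was read from its probe set with the highest mean signal over all lenses, among probe sets that the platform annotation pairs with a single gene symbol. A single-symbol probe set was found for 39 of the 40, out of 18193 genes with such a probe set, and Ccnb1 was not analysed here. The samples were laser-captured lens epithelium from 28-day-old mice on a C57Bl/6 background: 4 lenses of 3 SPARC-null (KO) animals and 3 lenses of 3 wild-type (WT) animals. All 6 animals came from 1 litter, KO animal 7 was male and the other animals female. The KO lenses are called 1L and 1R (the left and right eye of animal 1), 4L and 7L, and the WT lenses 2L, 5L and 6L. Lenses 1L and 1R entered as their average, so that n = 3 animals in each group. SPARC is a secreted matrix glycoprotein that slows the proliferation of many cells in culture, and the comparison asks which transcripts of the epithelium differ in its absence.

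In the lens, cells divide in the epithelium, mainly in a band near the equator, and then leave the cell cycle for good as they elongate into fibre cells. D-type cyclins with Cdk4 and Cdk6, and E-type cyclins with Cdk2, phosphorylate the retinoblastoma protein Rb1 and so free E2F transcription factors, which switch on the genes of DNA replication. The inhibitors p27 (Cdkn1b) and p57 (Cdkn1c) oppose these kinases and are part of the exit that precedes fibre formation. Genes of mitosis are switched on later, through promoter elements called CHR and CCAAT.

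None of the 39 genes differed between KO and WT lens epithelium by the test. In limma, 0 of 39 passed an adjusted p of 0.05, where 0.00666% of all 45037 probe sets did, and every member had an adjusted p of 0.99988. That share is 3 probe sets, and of the 18193 genes at their brightest probe set 1 passed, Sparc itself. A count of 0 therefore does not set the members apart from other genes. At an unadjusted p under 0.05 there were again 0 of 39, where 4.06% of all probe sets passed, and the smallest unadjusted p was 0.0585, at Birc5. KO and WT lenses overlapped at all 39 genes, whereas they did not overlap at 5.33% of all probe sets. The KO value was the higher one at 18 members and the lower one at 21, and their median log2 difference was -0.08. Over all probe sets the median was -0.01, and over the brightest probe set of each of the 18193 genes it was -0.03.

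The log2 differences ran from -0.73 (Cdk1) to 0.47 (Mcm4), apart from 0.57 at Tyms, which was above background in few lenses, with standard errors of 0.18 to 0.46. For 28 of the 39 genes the 95% interval of the difference lay wholly within 2-fold in either direction. For the other 11 it reached past 2-fold on one side: upward at Tyms, Mcm4 and E2f1, downward at Cdk1, Birc5, Ccne2, Cdk2, Cenpe, Bub1b, Ccne1 and Cenpa. With 3 animals a group, such an interval does not exclude smaller changes, and its ends are no limit of detection. In tissue of this kind, fewer cycling cells and less RNA per cell cannot be told apart.

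**Figure D1:**
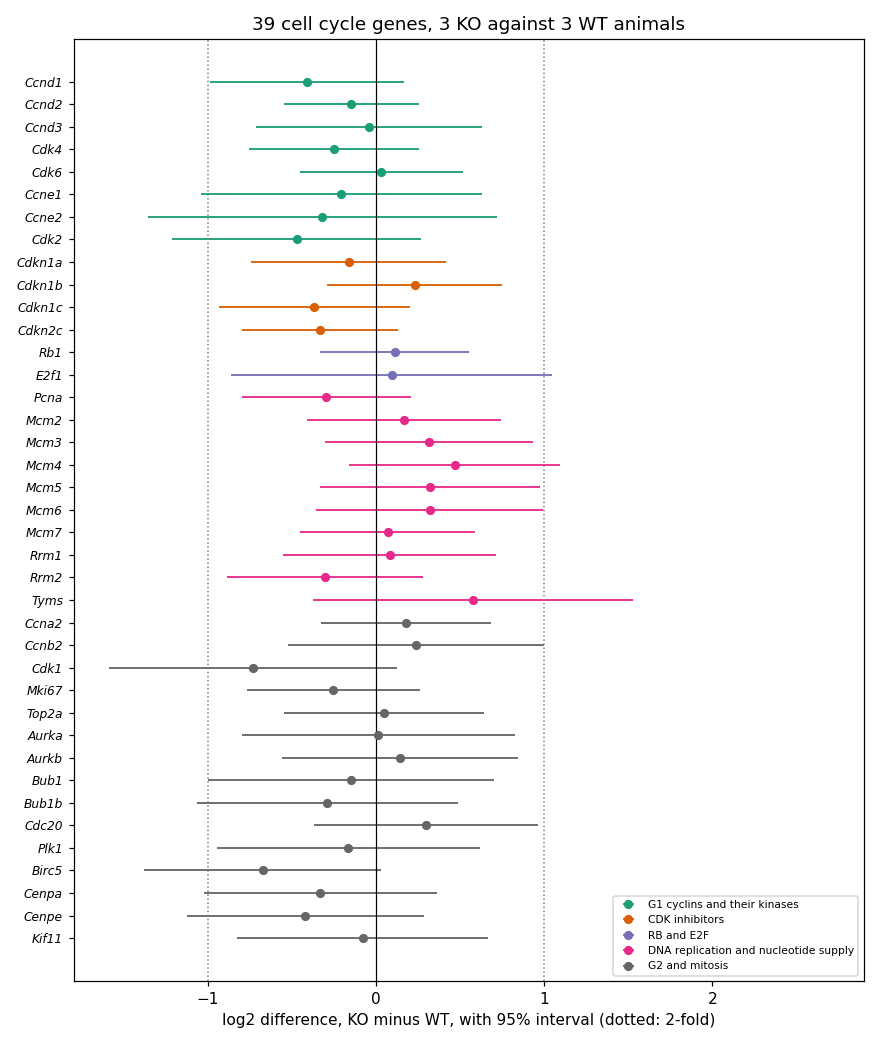
Log2 difference between KO and WT animals (horizontal axis, KO minus WT) for each of the 39 cell cycle genes, coloured by role, with points for the estimate and bars for the 95% interval; dotted lines mark 2-fold. Every interval includes 0, and 28 of the 39 lie between the dotted lines.

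Background was gauged by 27 bacterial control probe sets, whose signals were 0.199 to 45.5 over the 7 arrays. By this gauge 38 of the 39 members lay above the highest control in all 7 lenses, and Tyms did so in 3. The next weakest were Bub1, with signals down to 61.3, Kif11, down to 75.5, and Plk1, down to 76.2. The labels were checked with Sparc, whose brightest probe set gave deposited signals of 8.14 to 70.5 in KO lenses and at least 27370 in WT lenses. The array of WT lens 2L stood apart: its ratio of Gapdh signal at the 3' end to that at the 5' end, a measure of RNA integrity that is lower in more intact RNA, was 3.75, against 9.06 to 15.9 in the other 6 lenses. Of the chosen probe sets, 8 carry the suffix _x_at and 4 the suffix _s_at, which Affymetrix gives to probe sets that can also match other transcripts, so related sequences may add to those signals.

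The promoters of the replication and mitosis genes are shown first, because these are the groups whose members share known control elements. RefSeq start sites of GRCm38.p6 gave 36 windows of 300 bases (250 before the start and 50 after it) for 32 of the 40 genes. The words searched stood on either strand, and matches could overlap. They were E2F-type words (TTTCCCGC, TTTGGCGC, TTTCGCGC and TTTGCCGC), CHR words (TTTGAA and TTCGAA) and CCAAT. An E2F-type word stood in 4 of the 10 windows of replication genes, those of Mcm3, Mcm5, Mcm6 and Mcm7, against 2.26% of all 32851 windows. A CHR word stood in 11 of the 14 windows of G2 and mitosis genes, against 19.2% of all windows and 2 of 10 for replication genes. CCAAT was frequent in both groups, in 13 of 14 windows of mitosis genes and 9 of 10 of replication genes, against 37.4% of all windows. Among the windows of G1 cyclins and kinases 1 of 6 held an E2F-type word (Cdk2), 0 held a CHR word and 2 held CCAAT, and those of the CDK inhibitors (5 windows) held 0, 0 and 2. A match describes the letters only and does not show that a factor binds there.

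The 200 bases before the start site are printed below for Mcm5 (chr8:75109309-75109508, plus strand), Mcm6 (chr1:128359706-128359905, minus strand), Cdk1 (chr10:69352913-69353112, minus strand) and Top2a (chr11:99024190-99024389, minus strand), each from 5' to 3' on the gene's own strand, with matched words in capitals. Mcm5 and Mcm6 are the members in which an E2F-type word and another on the opposite strand overlap, and both also carry CCAAT. Cdk1 carries E2F-type, CHR and CCAAT words together, and Top2a carries CHR and CCAAT words only.
Mcm5: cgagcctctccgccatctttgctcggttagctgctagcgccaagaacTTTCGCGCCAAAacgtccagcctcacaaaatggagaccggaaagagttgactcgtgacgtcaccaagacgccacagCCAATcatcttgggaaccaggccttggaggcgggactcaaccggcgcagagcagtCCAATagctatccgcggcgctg
Mcm6: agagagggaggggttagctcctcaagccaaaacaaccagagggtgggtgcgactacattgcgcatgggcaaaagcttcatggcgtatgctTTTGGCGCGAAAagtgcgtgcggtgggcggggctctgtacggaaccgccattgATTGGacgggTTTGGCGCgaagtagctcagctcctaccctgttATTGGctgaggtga
Cdk1: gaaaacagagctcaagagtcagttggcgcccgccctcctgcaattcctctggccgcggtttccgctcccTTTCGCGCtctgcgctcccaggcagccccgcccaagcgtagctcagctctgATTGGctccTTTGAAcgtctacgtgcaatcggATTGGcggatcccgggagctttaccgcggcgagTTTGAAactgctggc
Top2a: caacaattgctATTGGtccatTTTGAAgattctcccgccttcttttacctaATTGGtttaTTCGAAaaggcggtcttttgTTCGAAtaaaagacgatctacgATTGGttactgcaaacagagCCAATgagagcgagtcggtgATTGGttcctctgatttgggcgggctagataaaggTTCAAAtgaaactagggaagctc

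Among the 8 G1 cyclins and kinases, the KO value was lower at 7 and higher at 1, the median log2 difference was -0.23, and none passed the test. Averaged over the 8 genes and set against the mean of the 6 animals, the KO lenses lay at -0.30 (1R), -0.13 (1L), -0.09 (7L) and -0.04 (4L). The WT lenses lay at 0.17 (2L), 0.09 (5L) and 0.09 (6L). The KO and WT lenses therefore did not overlap on this mean, although they overlapped at each of the 8 genes. The mean of 15 other RB, E2F and inhibitor genes did not overlap either, at -0.21 to -0.07 in KO lenses and 0.05 to 0.31 in WT lenses. The means of the lens epithelium, leukocyte and red cell markers given below also separated the lenses, lens epithelium in the same direction. How often the mean of a gene list separates these lenses was not determined. A shift of the G1 genes as a whole is therefore not shown. The median of the G1 group ran from -0.33 to -0.13 over the alternative settings, with -0.13 when 1L alone stood for animal 1 and -0.14 without animal 1.

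Ccnd1 encodes cyclin D1, the D-type cyclin that growth factors most often induce. On the normalized log2 scale it was at 11.01 (1L), 10.38 (1R), 11.15 (4L) and 10.27 (7L) in KO lenses and at 11.17 (2L), 11.34 (5L) and 10.84 (6L) in WT lenses. The KO lenses fell into a high pair, 1L and 4L, that lay among the WT lenses, and a low pair, 1R and 7L, that lay below them. The log2 difference was -0.41 (SE 0.26, 95% interval -0.99 to 0.17). Its other probe sets differed by -0.35 and -0.28, so all 3 had lower values in KO.

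Ccnd2 (cyclin D2) had the smallest standard error of the members, 0.18, from a model that also draws on probe sets of like brightness. It was at 13.32 (1L), 13.17 (1R), 13.56 (4L) and 13.52 (7L) in KO and at 13.50 (2L), 13.65 (5L) and 13.62 (6L) in WT lenses. The difference was -0.15 (95% interval -0.55 to 0.25), and both lenses of KO animal 1 lay below all WT lenses while 4L and 7L lay among them. Of the 7 Ccnd2 probe sets, 4 had lower and 3 higher values in KO, from -0.29 to 0.47. Ccnd3 (cyclin D3) differed by -0.04 (SE 0.30) at its chosen probe set and by -0.72 (SE 0.40) at another that was above the highest control in all lenses. Its remaining probe set, above that control in 3 lenses, went the other way, at 0.74 (SE 0.34, limma unadjusted p = 0.0581, adjusted p = 0.99988). At the chosen Ccnd3 probe set, lenses 1L and 1R of the same animal lay 1.08 apart.

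Cdk4, the partner of the D cyclins, followed the same high and low pairs as Ccnd1. It was at 11.08 (1L), 10.31 (1R), 11.05 (4L) and 10.37 (7L) in KO and at 11.15 (2L), 10.89 (5L) and 10.83 (6L) in WT lenses, a difference of -0.25 (SE 0.23). Another Cdk4 probe set differed by -0.68 (SE 0.25, limma unadjusted p = 0.0206, adjusted p = 0.99988), and the remaining one by -0.21. Cdk6, which can stand in for Cdk4, differed by 0.03 (SE 0.22) and was the 1 gene of this group with a higher value in KO.

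Cdk2, the kinase of the G1 to S transition and of S phase, was at 7.82 (1L), 7.93 (1R), 7.21 (4L) and 7.63 (7L) in KO and at 8.43 (2L), 7.67 (5L) and 8.04 (6L) in WT lenses. The lowest value was that of KO lens 4L and the highest that of WT lens 2L, and 5L lay inside the KO range. The log2 difference was -0.47 (SE 0.33, 95% interval -1.21 to 0.27). Its cyclins Ccne1 and Ccne2 differed by -0.21 (SE 0.37) and -0.32 (SE 0.46). Ccne2 had the largest standard error of all members, and its lenses 1L and 1R lay 1.26 apart.

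Of the 4 CDK inhibitors, 3 were lower in KO and Cdkn1b was higher. Their median log2 difference was -0.25 (-0.12 without WT animal 2 and -0.16 without KO animal 7), and none passed the test. Cdkn1c (p57) was at 12.22 (1L), 12.42 (1R), 12.38 (4L) and 11.79 (7L) in KO and at 12.85 (2L), 12.66 (5L) and 12.08 (6L) in WT lenses. WT lens 6L lay within the KO range and the other WT lenses above it. The difference was -0.37 (SE 0.25, 95% interval -0.94 to 0.20), and 1L and 1R lay 0.20 apart.

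Cdkn2c encodes p18, an inhibitor of Cdk4 and Cdk6. It was at 11.16 (1L), 11.47 (1R), 11.17 (4L) and 10.84 (7L) in KO and at 11.23 (2L), 11.58 (5L) and 11.53 (6L) in WT lenses. Here 1R alone of the KO lenses reached above a WT lens, 2L. The difference was -0.33 (SE 0.21). Cdkn1a (p21), the inhibitor induced by p53, differed by -0.16 (SE 0.26), with an SD over animals of 0.04 in KO and 0.32 in WT (n = 3 each). The KO SD rests on the average of lenses 1L (8.29) and 1R (8.98), which lay far apart. Single lenses ran from 8.29 to 8.98 in KO and from 8.39 to 9.02 in WT, so KO was not tighter lens by lens.

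Cdkn1b (p27) showed the widest gap of all members between the eyes of KO animal 1. It was at 9.28 (1L) and 10.63 (1R), at 9.66 (4L) and 10.30 (7L) in the other KO lenses, and at 9.89 (2L), 9.68 (5L) and 9.65 (6L) in WT lenses. The WT lenses lay close together, with KO lenses on both sides of them. The difference was 0.23 (SE 0.23), with the other, weaker probe set at -0.42 and never above the highest bacterial control. Some markers of lens fibre cells lay the same way between these eyes. The value in 1L minus that in 1R was -2.06 for Dnase2b, the nuclease that clears fibre cell DNA, -2.63 for Birc7 and -1.65 for Bfsp1, a beaded filament protein. These were the widest gaps among the 15 fibre genes, and the others ran from -0.63 (Prox1) to 0.06 (Mip). The 15 fibre genes averaged -0.36 in 1L and 0.22 in 1R against the mean of the animals. Genes of the neighbouring surface epithelium averaged -0.01 in 1L and 0.76 in 1R, and those of lens epithelium -0.07 and -0.05. The part of these cells in the Cdkn1b values was not tested.

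**Figure D2:**
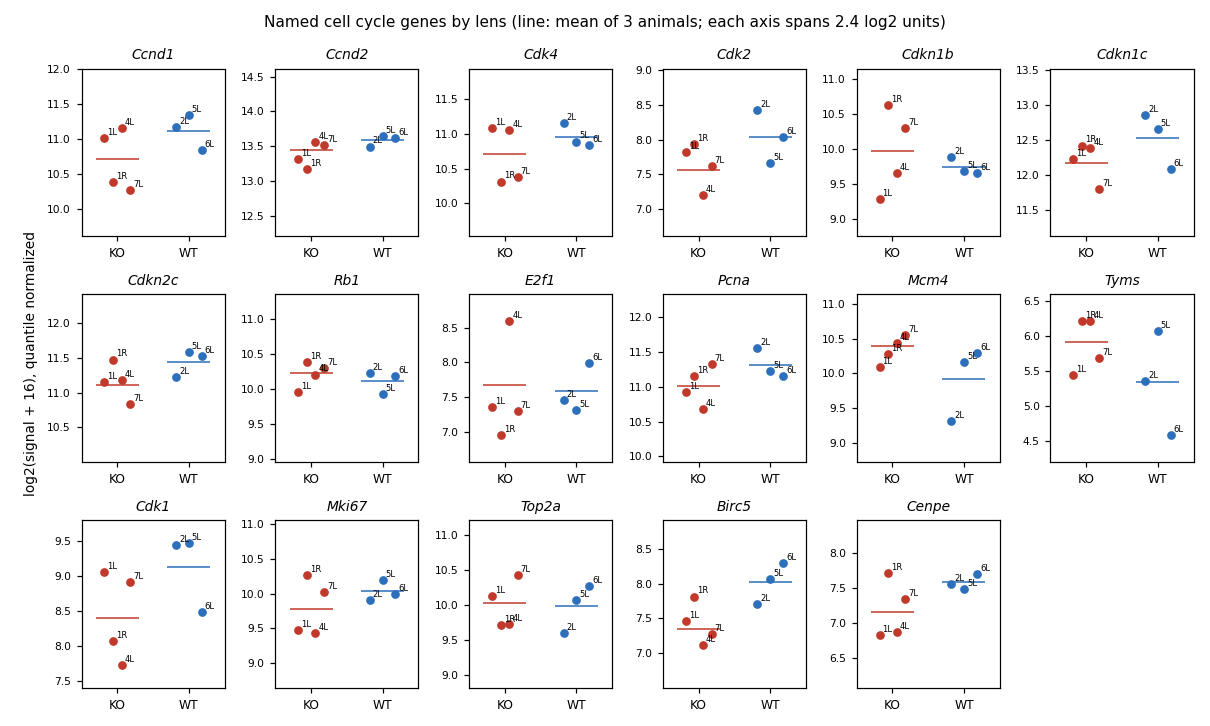
Normalized log2(signal + 16) of the 17 named members in each lens (points, labelled by animal and eye; KO red, WT blue), with lines for the means of the 3 animals; each vertical axis spans 2.4 log2 units. The groups overlap in every panel, and Cdkn1b shows 1L and 1R of the same animal 1.35 apart.

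Rb1, the brake that the G1 kinases release, was at 9.96 (1L), 10.38 (1R), 10.21 (4L) and 10.31 (7L) in KO and at 10.23 (2L), 9.93 (5L) and 10.19 (6L) in WT lenses. Its difference of 0.11 had a 95% interval of -0.33 to 0.55. E2f1, an activator that Rb1 holds in check, was at 7.36 (1L), 6.96 (1R), 8.59 (4L) and 7.30 (7L) in KO and at 7.46 (2L), 7.32 (5L) and 7.99 (6L) in WT lenses. KO lens 4L was the highest of the 7, 1L lay inside the WT range, and 1R and 7L lay below it. The E2f1 difference was 0.09 (SE 0.43), and its direction was not stable: it was -0.36 without KO animal 4, -0.04 without WT animal 5, -0.04 with the 7 lenses taken as independent and -0.06 with array weights.

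The 10 genes of DNA replication and nucleotide supply had a median log2 difference of 0.24, and none passed the test. The KO value was the higher one at 8 of them and the lower one at Pcna and Rrm2. Without WT animal 2 the median was 0.03, with array weights 0.08, with a gene's probe sets averaged 0.05, and with median centring 0.13. Pcna, the sliding clamp of the replicative polymerases, was at 10.92 (1L), 11.15 (1R), 10.68 (4L) and 11.32 (7L) in KO and at 11.56 (2L), 11.22 (5L) and 11.15 (6L) in WT lenses, a difference of -0.30 (SE 0.22). Rrm2, the small subunit of ribonucleotide reductase, differed by -0.30 (SE 0.26) at its chosen probe set and by -0.54 and -0.34 at its others. Rrm1, the large subunit of the same enzyme, differed by 0.08 (SE 0.28). A weak Rrm1 probe set, above the highest control in 3 lenses, differed by -0.93 (SE 0.40, limma unadjusted p = 0.0441, adjusted p = 0.99988).

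Tyms, which makes thymidylate, was near or under background in most lenses. Its lenses lay at 5.45 (1L), 6.22 (1R), 6.21 (4L) and 5.69 (7L) in KO and at 5.36 (2L), 6.07 (5L) and 4.58 (6L) in WT. The highest bacterial control was exceeded in KO lenses 1R and 4L and in WT lens 5L, so most of these values do not stand above background. The difference was 0.57 (SE 0.43), but 0.96 with a pseudocount of 1, 0.27 with 64, 0.20 without WT animal 6, 0.94 without WT animal 5 and 0.02 with its probe sets averaged, and it cannot be ranked among the others. The other 3 Tyms probe sets never exceeded that control.

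Mcm2 to Mcm7 encode the subunits of the helicase that unwinds DNA at the replication fork, and they are singled out here after their values were seen. All 6 had higher values in KO at their chosen probe sets, from 0.07 (Mcm7) to 0.47 (Mcm4), with a median of 0.32. With median centring of the arrays Mcm7 turned to -0.04 while the other 5 stayed higher. All 6 lay below the mean of the animals in WT lens 2L and all 6 lay above it in KO lens 4L. Averaged over the 6 genes the lenses lay at -0.06 (1L), -0.22 (1R), 0.38 (4L) and 0.17 (7L) in KO and at -0.56 (2L), -0.01 (5L) and 0.15 (6L) in WT. The WT lens 2L alone was below all KO lenses, and 5L and 6L lay among them.

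Mcm4 had the smallest p of this group (limma, unadjusted p = 0.129). Its lenses lay at 10.09 (1L), 10.28 (1R), 10.44 (4L) and 10.55 (7L) in KO and at 9.31 (2L), 10.16 (5L) and 10.30 (6L) in WT, so 2L was lowest by a wide margin. The Mcm5 and Mcm6 values of 2L, 9.41 and 9.28, were likewise the lowest of the 7 lenses, and so was that of Mcm2, 9.80. Without WT animal 2 the median of the 6 genes was 0.03, Mcm2 turned to -0.05 and Mcm7 to -0.03. At the chosen probe sets, the higher values of the MCM genes in KO therefore rest largely on WT lens 2L. They rest in part on KO lens 4L too, since Mcm7 turned to -0.145 without KO animal 4. WT lens 2L is the lens whose Gapdh ratio of 3.75 stood apart. The chosen probe sets of Mcm2 to Mcm7 all carry the suffix _x_at or _s_at, so related sequences may add to their signals.

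Other probe sets ordered the lenses differently at Mcm2, Mcm4, Mcm6 and partly Mcm7. For Mcm2 the other probe set gave 9.32 in 2L, the highest of the 7 lenses, and a log2 difference of -0.01. For Mcm6 the next brightest probe set gave 10.05 in 2L, again the highest, and a difference of -0.12, and for Mcm4 the other probe set differed by -0.03. The other Mcm7 probe sets went both ways: 2L was lowest at one (8.73, difference 0.37) and highest at those that gave it 8.33 (difference -0.18) and 9.06 (difference 0.12). At Mcm3 the next brightest probe set had the same direction as the chosen one (0.26) and a weaker one the opposite (-0.15), and at Mcm5 the other probe set differed by 0.38, in the same direction. Of the probe sets given here, those with neither suffix were the other ones of Mcm2, Mcm4, Mcm5 and Mcm6. The weaker one of Mcm3 and that of Mcm7 at -0.18 also carry neither. The position of these probe sets along the transcripts was not used here. The parts that RNA integrity and matches to other transcripts play in these orders were not tested.

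**Figure D3:**
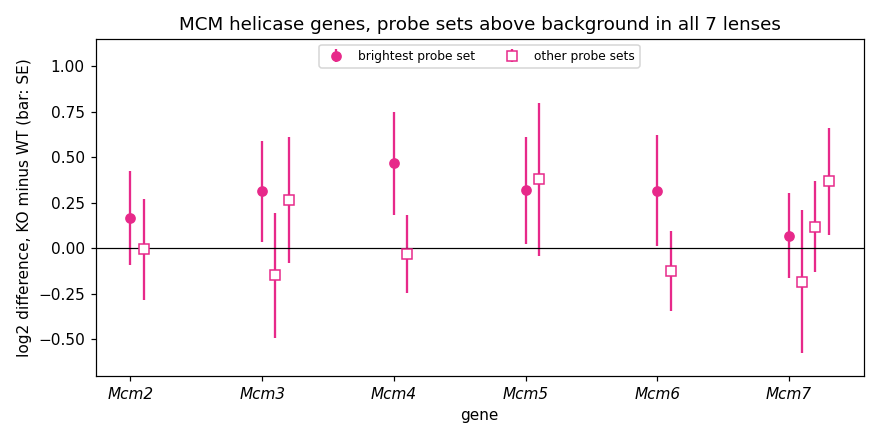
Log2 difference between KO and WT animals (vertical axis; bars, SE) for every probe set of Mcm2 to Mcm7 above the highest bacterial control in all 7 lenses; filled circles are the brightest probe set of a gene and open squares its others. The circles all lie above 0, from 0.07 to 0.47, while the squares lie on both sides, from -0.18 to 0.38.

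The 15 genes of G2 and mitosis had a median log2 difference of -0.15, and none passed the test. That median was -0.02 without WT animal 5, -0.05 without KO animal 4, -0.26 without WT animal 2, -0.04 with the signals as deposited and -0.09 with a pseudocount of 64. The KO value was the higher one at 6 and the lower one at 9. Averaged over these genes the lenses lay between -0.17 (4L) and 0.01 (7L) in KO and at -0.04 (2L), 0.26 (5L) and 0.00 (6L) in WT. Only WT lens 5L stood above the KO range.

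Mki67, the antigen Ki-67 that is used to count cycling cells, was at 9.48 (1L), 10.26 (1R), 9.44 (4L) and 10.02 (7L) in KO and at 9.90 (2L), 10.20 (5L) and 9.99 (6L) in WT lenses. The WT lenses lay close together, and the KO lenses formed a low pair (1L, 4L) and a pair in or above the WT range (1R, 7L). The difference was -0.26 (SE 0.23, 95% interval -0.77 to 0.26). Top2a, the topoisomerase that untangles sister chromatids, was at 10.13 (1L), 9.71 (1R), 9.72 (4L) and 10.42 (7L) in KO and at 9.59 (2L), 10.07 (5L) and 10.27 (6L) in WT lenses. Its difference of 0.04 (SE 0.27) was the second smallest in size among these genes, after Aurka, and it turned to -0.07 with median centring.

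Cdk1, the kinase that starts mitosis, had the largest lower value in KO. It was at 9.06 (1L), 8.07 (1R), 7.72 (4L) and 8.91 (7L) in KO and at 9.44 (2L), 9.47 (5L) and 8.48 (6L) in WT lenses. The WT lenses 2L and 5L lay above all KO lenses, while 6L lay between the high and the low KO lenses. The difference was -0.73 (SE 0.38, 95% interval -1.59 to 0.12, limma unadjusted p = 0.0847). The lenses of KO animal 1 lay 0.99 apart.

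Birc5, the chromosomal passenger protein survivin, came closest to the unadjusted threshold. It was at 7.47 (1L), 7.81 (1R), 7.12 (4L) and 7.28 (7L) in KO and at 7.71 (2L), 8.06 (5L) and 8.29 (6L) in WT lenses. Only 1R and 2L crossed. The difference was -0.68 (SE 0.32, 95% interval -1.38 to 0.03, limma unadjusted p = 0.0585, adjusted p = 0.99988), and Birc5 has a single probe set. Aurkb, the kinase of the same complex, differed by 0.14 (SE 0.31) at its chosen probe set. Its other probe set, above the highest control in 6 lenses, differed by -0.41 (SE 0.35).

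Cenpe, a kinetochore motor, was at 6.82 (1L), 7.72 (1R), 6.87 (4L) and 7.33 (7L) in KO and at 7.55 (2L), 7.49 (5L) and 7.69 (6L) in WT lenses. KO lens 1R lay above all WT lenses and the other KO lenses below all of them, with a difference of -0.42 (SE 0.31). Cenpa, the histone H3 variant of centromeres, differed by -0.33 (SE 0.31). Of the checkpoint kinases, Bub1b differed by -0.29 (SE 0.35) and Bub1 by -0.15 (SE 0.38). The mitotic cyclins Ccna2 and Ccnb2 differed by 0.18 (SE 0.23) and 0.24 (SE 0.34), and Cdc20, an activator of the anaphase-promoting complex, by 0.30 (SE 0.30). Another Cdc20 probe set, above the highest control in all 7 lenses, went the other way, at -0.27 (SE 0.28). The remaining genes, Plk1 and Aurka (mitotic kinases) and Kif11 (a spindle motor), lay between -0.17 and 0.01.

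**Figure D4:**
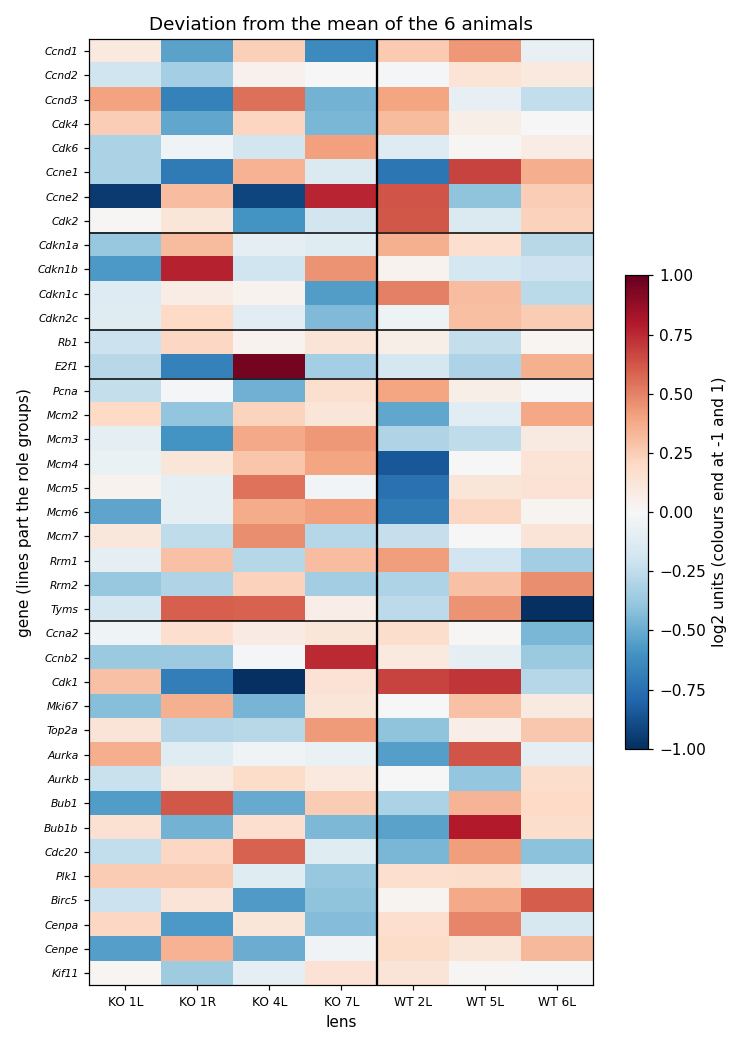
Deviation of each member (rows, grouped by role) from the mean of the 6 animals in every lens (columns), on the normalized log2 scale; red is higher and blue lower, and colours end at -1 and 1. No row has all KO lenses on one side of all WT lenses, and the column of WT lens 2L is blue at all 6 MCM genes.

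KO animal 1 was the animal with both eyes measured. Its lenses 1L and 1R differed by a median of 0.42 log2 units in either direction over the 39 members, and by the same median over all probe sets. This is a gap between single arrays, so it is not on the same footing as the differences between means of 3 animals. The members were higher in 1L at 16 genes and in 1R at 23, with the largest gaps at Cdkn1b (1.35), Ccne2 (1.26) and Bub1 (1.18).

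Probe sets of 1 gene did not always give the same direction. The 39 genes have 95 probe sets, and 20 genes have at least 2 that lay above the highest control in all lenses. At 9 of these 20 genes such probe sets gave the same sign, lower in KO at Ccnd1, Ccnd3, Cdk4, Ccne1, Rrm2, Bub1b and Cenpa and higher at Cdk6 and Mcm5. At the other 11 they gave both signs. Over all 95 probe sets, 2 had an unadjusted p under 0.05 in limma, those of Cdk4 and Rrm1 given above, where 4.06% of all probe sets did.

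**Figure D5:**
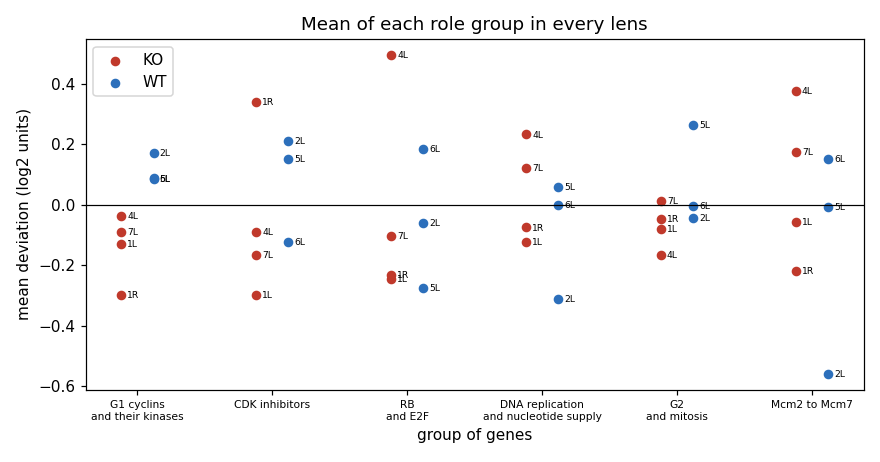
Mean deviation of each role group from the average of the 6 animals (vertical axis, log2 units) in each lens (points, labelled; KO red, WT blue). Of the groups drawn, the lenses separate on the G1 group, and WT lens 2L lies lowest, at -0.56, on the MCM genes.

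Further genes of the cell cycle were counted in the same way. Of 126 other genes listed for it, 119 were measured, and the KO value was the higher one at 33 and the lower one at 86 (median log2 difference -0.16). Of the 18193 genes at their brightest probe set, 9867 had the lower value in KO. In limma 0 of the 119 passed the adjusted p, and 5 had an unadjusted p under 0.05, where 4.06% of all probe sets did. Their lenses did not overlap at 7 genes, where 5.33% of all probe sets did not. The median was -0.22 for 15 other RB, E2F and inhibitor genes, -0.15 for 40 replication genes (13 higher, 27 lower, opposite to the replication members), -0.16 for 52 mitosis genes and -0.04 for 12 p53 targets and growth arrest genes.

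The 5 genes all had lower values in KO, with an adjusted p of 0.99988 each. Gins4 and Cdc45 belong to the complex that turns the MCM ring into an active helicase. Gins4 was at 9.86 (1L), 9.49 (1R), 9.86 (4L) and 9.87 (7L) in KO and at 10.37 (2L), 10.20 (5L) and 10.36 (6L) in WT lenses, all KO lenses below all WT lenses, and it differed by -0.51 (SE 0.20, limma unadjusted p = 0.0279). Cdc45 differed by -0.82 (SE 0.35), with its lenses apart, and by 0.27 at its other probe set. E2f8, a repressor, differed by -0.92 (SE 0.38), with its lenses apart, and E2f2, an activator, by -0.95 (SE 0.42), with overlap. The weaker E2f2 probe set differed by 0.57, and that of E2f8 never exceeded the highest control. Ccna1, a cyclin known mainly from the germ line, exceeded that control in WT lens 5L only, and no fold is given.

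Markers of the tissue and its neighbours were measured in the same lenses. Of 12 lens epithelium genes, 11 lay above the highest control in all 7 lenses, among them Pax6, Cdh1 and Cryaa, and Foxe3, a transcription factor of this epithelium, did so in 3. The mean of the 12 genes lay between -0.11 and -0.05 in KO lenses and between 0.01 and 0.20 in WT lenses. That mean includes Foxe3, which differed by -1.02 (SE 0.46), the largest difference of the list, although it was weak. The mean without Foxe3 was not taken, and KO and WT lenses overlapped at each of the 12 genes. A shift of the epithelium genes as a whole is therefore not shown. Of 20 macrophage and leukocyte genes, 18 had the higher value in KO. Their deposited signals summed to between 3585 and 5790 per KO lens and between 1915 and 2985 per WT lens, and Aif1 never exceeded the control. Red cell and endothelial genes were higher in KO at 12 of 12 (summed signal 1503 to 1856 per KO lens, 778 to 1289 per WT lens), with Hba-a1 and Pecam1 never above the control. Genes of surface epithelium, a neighbouring tissue that also divides, were lower in KO at 14 of 15, and summed to between 13714 and 30218 per KO lens and between 21518 and 31435 per WT lens. Genes of other tissues also gave strong signals. The 14 photoreceptor genes summed to between 86978 and 122550 per KO lens and between 77052 and 136600 per WT lens. Sums for 15 stroma and muscle genes were 40082 to 68562 (KO) and 50913 to 80449 (WT). Pigment cell genes, 11 of them, gave 32140 to 60295 (KO) and 29713 to 57522 (WT). The 12 lens epithelium genes reached 146040 to 177100 (KO) and 122220 to 181180 (WT). Such sums are not shares of cells. The part of all these cells in the values of the cell cycle genes was not tested.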

How the data were processed

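Expression was measured in 7 lenses on 1 Affymetrix mouse array each. Per the labels' protocols, RNA of laser-captured cells was amplified over 2 cycles, the last with biotin. Each deposited value is a linear intensity, 1 per probe set and array, and arrays have a shared trimmed mean of 500.003 or 500.004 (2% trimmed at each end). The software that summarised the probes was not given in the sources used here. Amplification starts at the 3' end, which lowers the signal of probe sets that lie far from that end.

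Leaving out 64 controls kept 45037 probe sets, with no filter. They were turned into log2(signal + 16), which understates changes of weak probe sets, and quantile normalized. The 3 KO animals were set against the 3 WT animals in limma 3.58.1 under R 4.3.3 (lmFit and eBayes with an intensity trend, two-sided). P-values of all probe sets were adjusted together (Benjamini-Hochberg), and calls were made under 0.05. The number of arrays limits the precision. The code was tested on simulated data.

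Gene names came from the platform annotation (34945 probe sets with 1 symbol, 932 with several, 9160 with none). The members and lists were chosen with earlier results of these data known. Members given lens by lens were up to 3 with the smallest p in each role group and 7 usual markers of cycling and withdrawal. Promoter sequences are RefSeq's, on GRCm38.p6. From other lists, genes with an unadjusted p under 0.05 were named. The alternatives were treating all 7 lenses as independent, using only 1L or only 1R, median centring, the signals as deposited, a filter on low values (above the highest bacterial control in at least 3 lenses), pseudocounts of 1 and 64, array weights, no intensity trend, averaging a gene's probe sets, an adjusted p of 0.1, and leaving out each animal in turn.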

Additional observations from a re-analysis of the deposited data

Results flagged for a closer look

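Among the 4 KO lenses, 1 lens lay far from the other 3 at 3 of the 39 genes. The gap to the nearest lens was 0.881 of the whole range at Rrm2, where 4L was highest, 0.83 at Mcm2, where 1R was lowest, and 0.83 at Aurka, where 1L was highest. Chance alone gives such a gap in about 1 of 20 groups, and 1L and 1R come from 1 animal, so the 4 lenses are not independent.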

How the results depend on the processing

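The count of members past the adjusted p stayed at 0 under all 18 alternatives. The smallest adjusted p of any gene given lens by lens, or of any MCM gene, was 0.72. At an unadjusted p under 0.05 there was 1 gene, in place of 0, with median centring, the filter on low values, no intensity trend or the left lens of KO animal 1 only (each time Birc5), and 1 with the right lens only (Cdk1). Leaving out 1 animal gave 0 to 2 such genes, among them Ccnd1 without KO animal 4, Tyms without WT animal 5, and Cdkn1c and Cdk1 without WT animal 6. The median difference of all members was -0.0185 with the left lens only and -0.14 to -0.0162 when 1 animal was left out. The cause was not tested.

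Of 22 genes, 15 kept their direction throughout. Top2a was at -0.0253 with the right lens only, -0.067 with median centring, -0.0656 with array weights and -0.0306 with a gene's probe sets averaged, and E2f1 at -0.0386 with 7 independent lenses and -0.059 with array weights. With a gene's probe sets averaged, Cdkn1b was at -0.0932, Rb1 at -0.062 and Mcm6 at -0.0671, and with median centring Mcm7 at -0.0373. With 1 animal left out the range was -0.157 to 0.194 for Top2a, -0.362 to 0.353 for E2f1, -0.0542 to 0.399 for Mcm2 and -0.145 to 0.231 for Mcm7. The median over all probe sets moved by less than 0.1 under every scaling. No paired analysis was possible because KO and WT animals carry different numbers. The depth of an array is not known. Among the members only Tyms lay under the highest bacterial control in any lens, but Bub1, Kif11 and Plk1 were also weak.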
